A study of Mus musculus with 6 samples.

Results

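The genes described here carry the signal that a gonadotropin receptor sends through cyclic AMP (cAMP). They were taken by symbol from the deposited tables: the protein-coding genes of the adenylyl cyclase (Adcy), phosphodiesterase (Pde), A-kinase anchoring protein (Akap) and RGS families, the catalytic and regulatory subunits of protein kinase A (PKA), the receptors Fshr and Lhcgr, and the transcription factor genes Creb1 and Crem. This gave 81 genes of 55487 listed, of which 21936 are protein-coding. Of the 81, 56 passed a filter on low counts and were tested, and 25 did not pass it. The families hold some genes that share only the name, such as Pde6d, a chaperone that binds prenylated proteins, and Pde12, which degrades short oligoadenylates and not cyclic nucleotides.

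RNA was sequenced from 6 libraries titled as mouse ovarian granulosa cells, which enclose and nourish the oocyte in its follicle. The 3 controls received phosphate-buffered saline (PBS) and the other 3 received cetylpyridinium chloride (CPC), a cationic antiseptic. All 6 are labelled wild type, and the sources used here give no dose, duration, route or age. Other labels contradict the titles: they name SKOV3, a human ovarian cancer line, a GATA4 transfection and a human genome build, while the files hold mouse genes.

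Follicle-stimulating hormone and luteinizing hormone act on granulosa cells through receptors that couple to the stimulatory G protein, which switches on adenylyl cyclase. The cAMP produced binds the regulatory subunits of PKA and frees the catalytic subunits, which phosphorylate targets including CREB, while anchoring proteins hold the kinase at chosen sites in the cell. Phosphodiesterases break cAMP down, and RGS proteins speed the hydrolysis of GTP by G protein alpha subunits and so shorten G protein signals. In the follicle this pathway drives oestrogen and progesterone synthesis, ovulation and luteinization.

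Total counts were 19079345 to 23157541 per library, and Pearson correlations of log2 CPM (counts scaled to a common library size) lay between 0.979 and 0.984 among controls, between 0.981 and 0.982 among CPC libraries and between 0.938 and 0.956 across the groups. No 2 libraries of one group matched within sampling noise. Among granulosa cell markers Inha had 19494 to 44757 counts, and Foxl2 662 to 1971, but Amh had at most 3 and Cyp19a1 8 to 29. Of the 11 granulosa markers tested, 7 were lower in CPC, Fshr among them, where 19.7% of all tested genes were lower (edgeR, adjusted p under 0.05). Gja1, an abundant marker of the list, was 1282 ± 440.9 CPM in control and 1380 ± 447 in CPC (SD; adjusted p = 0.809). The labels do not tell whether replicates are separate animals or cultures, and p-values therefore reflect the spread of these libraries alone, which may be technical. In bulk RNA, fewer cells of a type and less RNA per cell cannot be told apart.

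The promoters of 4 members are shown because cAMP-dependent transcription acts through the cAMP response element (CRE). Among members with a RefSeq promoter, they are the one with a complete CRE and 1 with a large fall and no site. The others have only the half-site, 1 called lower and 1 called higher. The windows run from 250 bases before to 50 after a RefSeq gene start in GRCm38.p6, and capitals mark the full CRE TGACGTCA and its half-sites TGACG and CGTCA, searched on both strands; the full site contains the half-site.

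Prkar1a promoter, chr11:109650699-109650998, plus strand: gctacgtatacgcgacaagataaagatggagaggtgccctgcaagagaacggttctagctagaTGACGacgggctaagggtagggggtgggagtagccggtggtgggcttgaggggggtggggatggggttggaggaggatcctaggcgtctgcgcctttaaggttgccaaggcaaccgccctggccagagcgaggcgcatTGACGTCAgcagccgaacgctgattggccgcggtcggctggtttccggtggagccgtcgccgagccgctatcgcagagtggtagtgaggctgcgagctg
Rgs4 promoter, chr1:169747593-169747892, minus strand: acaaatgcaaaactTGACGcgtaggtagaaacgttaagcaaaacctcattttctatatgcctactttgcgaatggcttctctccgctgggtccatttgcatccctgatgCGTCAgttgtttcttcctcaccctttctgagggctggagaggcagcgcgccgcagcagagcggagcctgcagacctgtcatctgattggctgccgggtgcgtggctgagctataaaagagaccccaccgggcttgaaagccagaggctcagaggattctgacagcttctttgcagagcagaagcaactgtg
Pde8a promoter, chr7:81213015-81213314, plus strand: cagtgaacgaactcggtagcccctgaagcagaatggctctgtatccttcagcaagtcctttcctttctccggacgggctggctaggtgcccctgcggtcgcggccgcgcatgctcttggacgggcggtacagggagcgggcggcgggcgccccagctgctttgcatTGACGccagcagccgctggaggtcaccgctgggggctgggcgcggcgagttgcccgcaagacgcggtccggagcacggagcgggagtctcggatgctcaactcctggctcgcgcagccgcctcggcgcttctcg
Akap5 promoter, chr12:76324641-76324940, plus strand: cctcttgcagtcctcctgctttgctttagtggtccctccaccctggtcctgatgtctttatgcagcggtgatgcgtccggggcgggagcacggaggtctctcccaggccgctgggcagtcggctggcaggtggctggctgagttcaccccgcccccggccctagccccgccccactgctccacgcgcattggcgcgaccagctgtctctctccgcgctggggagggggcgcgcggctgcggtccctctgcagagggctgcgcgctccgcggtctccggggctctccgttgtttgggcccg

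In Prkar1a, the type I regulatory subunit gene whose RNA fell in CPC, half-sites started at -187, -49 and -46 from the gene start, and the last pair overlap to form the complete CRE. Rgs4, which fell, had half-sites at -236 and -141, and Pde8a, which rose, had one at -84. No motif letters were found in the window of Akap5. RefSeq promoters matched 64 of the 81 members, with 112 windows. Crem was among the 17 not matched, so its promoters were not searched. The full CRE stood in 2 of the 112 windows (1.79%), and in 1.79% of the 32851 windows of the whole table. Those 2 windows overlap and are both of Prkar1a, so by gene the full CRE was found for 1 of 64 matched members (1.56%) and for 2.03% of the 27025 genes of the table. A half-site stood in 23 of the members' windows (20.5%) and in 20.8% of all windows. By gene, a half-site was found for 21 of the 64 matched members (32.8%) and for 23% of all genes. Members had more windows per gene, 112 for 64 matched genes against 32851 for the 27025 genes of the table. The difference by gene, and the part of window number in it, were not tested. The 21 were 3 of 8 matched members called higher, 4 of 10 called lower, 10 of 29 not called and 4 of 17 below the filter. These matches describe letters in a window and are not evidence of binding.

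CPC libraries differed from control at 22 of the 56 tested members, where 39.3% of all genes did, at an adjusted p under 0.05 (edgeR quasi-likelihood, Benjamini-Hochberg over 15000 genes). There were 9 members higher (16.1%) against 19.6% of all tested genes, and 13 lower (23.2%) against 19.7% of all tested genes, so the family as a whole was called about as often as the background. Values of the groups did not overlap at 28 of the 56 members, and at 53.5% of all tested genes. The median log2 fold change was -0.09 over the tested members and -0.003 over all genes. DESeq2 called 9 members higher and 13 lower, against 19.7% and 20.4% of all genes. With the replicate number as a block, 12 members were higher and 17 lower, where the background was 26.5% higher and 27.9% lower.

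The directions by class were as follows, to be read beside 19.6% of all tested genes higher and 19.7% lower. Among 16 tested phosphodiesterase genes 5 were higher and 1 was lower. Of 12 tested RGS genes 1 was higher and 4 were lower, and Rgs1 and Rgs22 among the 4 passed the filter through their control counts. Of 12 tested anchoring protein genes 2 were higher and 3 lower, and of the 6 PKA subunit genes 1 was higher and 2 were lower. Among 7 tested adenylyl cyclases 1 was lower, and of the 3 tested genes among the receptors and CREB family 2 were lower. No cyclase, receptor or CREB family gene was called higher: the count was 0 with edgeR, 0 with DESeq2, 0 with limma-voom and 0 at an unadjusted p under 0.05. Without replicate 1 of both groups, 3 members were higher and 5 lower in all. That fit has fewer libraries, and the share of all genes it called is not given here. None of the 22 called members changed the sign of its log2 change in any fit that left out libraries. The 4 RGS genes lower became 1 without CPC 1 and 2 without control 2 or CPC 2, and the 2 anchoring proteins higher became 1 on leaving out any library but control 3. The counts rest on few genes per class, and no test of a class was made.

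**Figure D1:**
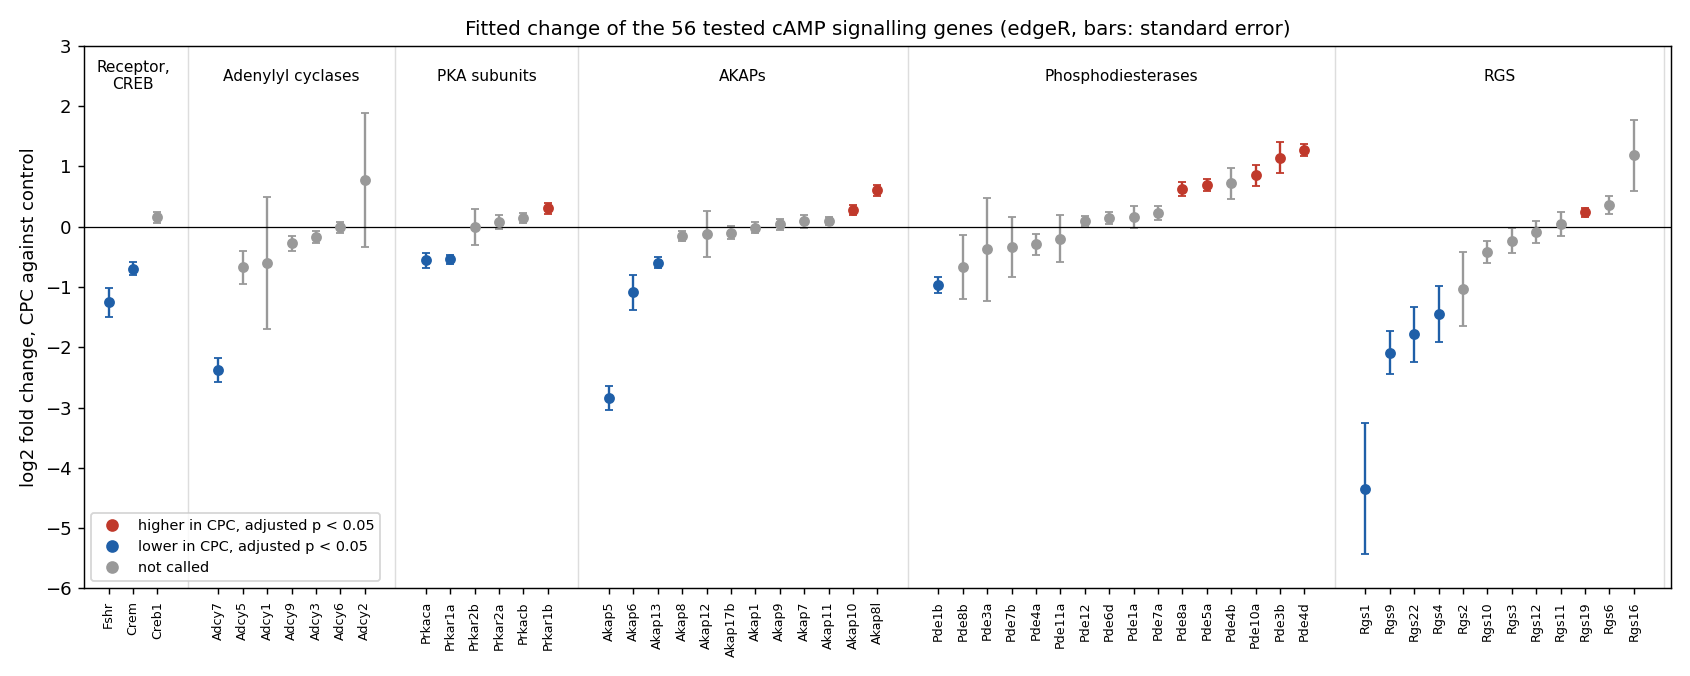
Log2 fold change of CPC against control for each of the 56 tested members (vertical axis; bars are standard errors), grouped by class and ordered within it. Red points are the 9 members called higher and blue points the 13 called lower; Akap5 and Rgs1 lie lowest, and the highest called point is Pde4d.

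Fshr, the receptor for follicle-stimulating hormone (ENSMUSG00000032937, chr17:88984952-89200675 on GRCm38.p6), was expressed at a low level and fell in CPC. Its level was 2.62, 3.36 and 3.76 CPM in control 1 to 3 and 1.29, 1.25 and 1.54 CPM in CPC 1 to 3. Each CPC library lay below each control. The fitted fall was 2.38-fold (log2 -1.25 ± 0.24 SE, edgeR adjusted p = 0.00681), and it rests on 49 to 80 counts per control library and 25 to 33 per CPC library. The call was lost without replicate 1 of both groups (adjusted p = 0.0502) and without replicate 2 of both (adjusted p = 0.0626). Lhcgr, the receptor for luteinizing hormone, was counted 2, 18 and 24 times in control and 1, 0 and 7 times in CPC, and did not pass the filter. Without CPC 3, which holds most of its CPC counts, it passed and was called lower (edgeR adjusted p = 0.0481). Lhcgr passed there through its control counts, so that call adds no support. Leaving out CPC 1 (adjusted p = 0.272), CPC 2 (0.25) or control 1 (0.0587) gave no call for Lhcgr. Nor did leaving out replicate 1 of both groups (0.144) or the filter (0.204). The granulosa marker list, which includes Fshr, summed to 7160 to 8331 CPM in control and 4641 to 6288 CPM in CPC. Inhba made up 35.7% to 56.5% of that sum over the libraries. Inha and Inhba are also among the cAMP-induced genes counted below. The part of cell makeup in the fall of Fshr was not tested. The Lhcgr groups overlap, and the level of Lhcgr in control 1 was below the 3 counts taken as the floor.

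Per length, the most abundant adenylyl cyclase genes, which make cAMP from ATP, were Adcy9 at 17.3 ± 3.07 (SD, n = 3), Adcy6 at 16.5 ± 0.769 and Adcy3 at 7.57 ± 0.694 CPM per kb of exon in control. Adcy9 and Adcy6 overlap within their spread, and both lie above Adcy3. Adcy6, a cyclase inhibited by calcium, was 99.6 ± 4.64 CPM in control and 99.2 ± 10.6 in CPC (SD, n = 3; log2 -0.005 ± 0.09 SE, adjusted p = 0.969). Adcy3 was 42.5 ± 3.90 CPM and 37.8 ± 3.67 (adjusted p = 0.247), although 22.1% of its exon bases lie in the exons of Cenpo on the opposite strand and no source states the strand. Adcy9 was at 73.8, 81.3 and 103 CPM in control and at 67.4, 71.1 and 75.2 in CPC. The Adcy9 groups overlap, and the difference was not called (log2 -0.27, adjusted p = 0.126) but was called with the replicate block (adjusted p = 0.0191).

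Adcy7, a cyclase potentiated by G protein beta-gamma subunits and prominent in blood cells (ENSMUSG00000031659, chr8:88272403-88329962), was the cyclase called lower. It was at 7.69, 6.72 and 8.51 CPM in control and at 1.33, 1.41 and 1.68 CPM in CPC, with wide separation between the groups. The fall was 5.18-fold (log2 -2.37 ± 0.20 SE, edgeR adjusted p = 3.90e-04), and the call held in all 16 alternatives tried. Leukocyte markers moved the same way: 8 of the 9 tested from a list of 12 were lower in CPC, where 19.7% of all tested genes were. Itgam, Adgre1, Fcer1g and Tyrobp among the 8 passed the low-count filter through their control counts. No CPC library held more than 3 reads of Itgam. The share of 8 in 9 therefore leans to lower calls. The list summed to 195 to 318 CPM in control and 14.2 to 38.0 CPM in CPC. Lyz2 made up 82.3% to 84.8% of that sum in control and 30.1% to 56.3% in CPC, Ptprc had 38 to 79 counts in control and 7 to 20 in CPC, and the T cell gene Cd3e had 0 to 4 counts in any library. The part of leukocyte RNA in the fall of Adcy7 was not tested. Adcy7 held 3.39% of the summed cyclase level per length in control and 0.743% in CPC.

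Of the PKA subunit genes, Prkar1a and Prkaca fell in CPC, and Prkar1b rose. Prkar1a, the type I alpha regulatory subunit (ENSMUSG00000020612, chr11:109649405-109669656), was at 517.5, 500.3 and 527.8 CPM in control and at 345.6, 362.5 and 357.1 CPM in CPC. The replicates of each group lie close together and the groups far apart. The fall was 1.45-fold (log2 -0.54 ± 0.07 SE, edgeR adjusted p = 0.00194). Prkaca, the alpha catalytic subunit (ENSMUSG00000005469, chr8:83972993-83996443), was at 111, 102 and 139 CPM in control and at 72.6, 79.2 and 86.9 CPM in CPC. Control 3 stands above the other controls, and no CPC library reached the lowest control. The fall of Prkaca was 1.47-fold (log2 -0.56 ± 0.13 SE, edgeR adjusted p = 0.0132). Both calls were lost without replicate 1 of both groups (adjusted p = 0.0533 for Prkar1a and 0.0963 for Prkaca). The log2 changes in that fit were -0.515 for Prkar1a and -0.534 for Prkaca.

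Prkar1b, the type I beta regulatory subunit, rose from 38.4 ± 0.924 to 47.4 ± 4.14 CPM (SD, n = 3; log2 0.31 ± 0.09 SE, adjusted p = 0.0295). That call was lost on leaving out any single library but CPC 3, with an adjusted p of up to 0.0907, and 9.0% of its exon bases are shared with Gm15672. Prkacb, the beta catalytic subunit, was 125.5 ± 4.34 CPM in control and 138.6 ± 11.7 in CPC (adjusted p = 0.189). Prkar2a, the type II alpha regulatory subunit, was 80.6 ± 13.1 and 85.3 ± 2.44 CPM (adjusted p = 0.613). Prkar2b, the type II beta subunit that follicle-stimulating hormone induces in rat granulosa cells, was at 209, 306.7 and 297.7 CPM in control and at 164, 283 and 365 in CPC. Both groups of Prkar2b span a wide range and overlap, with replicate 1 lowest in each (log2 -0.003 ± 0.30 SE, adjusted p = 0.994).

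Per length in control, Prkar1a stood at 147 ± 3.96 CPM per kb, Prkar2b at 80.3 ± 15.9, Prkaca at 51.5 ± 8.54, Prkacb at 28.9 ± 0.999, Prkar2a at 16.2 ± 2.64 and Prkar1b at 14.6 ± 0.352 (SD, n = 3). The last pair do not differ beyond their spread, and the first 3 were the most abundant of all 81 members. Summed over the 4 regulatory genes the level was 240.0, 261.8 and 271.6 CPM per kb in control and 183.6, 222.3 and 243.3 in CPC, a ratio of 0.84. The 2 catalytic genes summed to 77.0, 74.6 and 89.4 CPM per kb in control and 61.8, 69.8 and 69.0 in CPC, a ratio of 0.83. The regulatory sums overlap between the groups and the catalytic sums do not. The ratio of regulatory to catalytic level was 3.12, 3.51 and 3.04 in control and 2.97, 3.19 and 3.53 in CPC, so this ratio overlapped between the groups. Prkar1a made up a mean of 57.0% of the regulatory sum in control and 47.3% in CPC. Prkaca made up 63.8% and 52.3% of the catalytic sum, and neither share overlapped between the groups. These sums and shares are descriptions and were not tested.

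**Figure D2:**
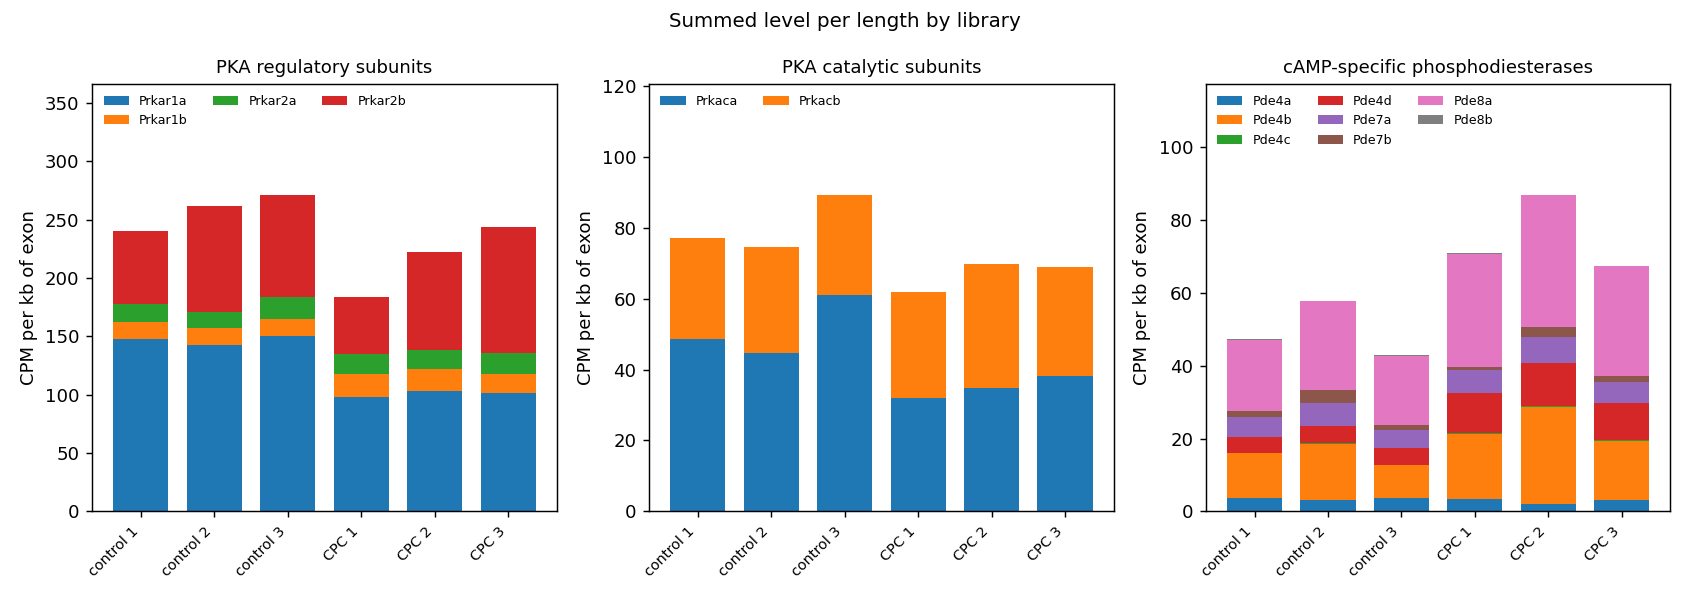
Stacked bars of the summed level (CPM per kb of exon) in each library for PKA regulatory subunit genes, PKA catalytic subunit genes and the cAMP-specific phosphodiesterase genes. Prkar1a and Prkaca segments are shorter in the CPC bars, and the 3 CPC phosphodiesterase bars, at 70.9, 87.0 and 67.5, stand above the control bars, at 47.3, 57.8 and 42.8.

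Among anchoring proteins, which tether PKA, Akap5 fell most and Akap8l rose most. Akap5, which places PKA at the plasma membrane beside receptors and channels (ENSMUSG00000021057, chr12:76324891-76334153), was at 48.5, 30.7 and 40.7 CPM in control and at 5.48, 6.52 and 4.71 CPM in CPC. The controls vary among themselves, but the lowest lies far above every CPC library. The fall was 7.17-fold (log2 -2.84 ± 0.20 SE, edgeR adjusted p = 2.43e-04). Akap13, which is also an exchange factor for the GTPase RhoA (chr7:75455534-75754609), was at 127, 149 and 124.5 CPM in control and at 92.0, 88.4 and 85.2 in CPC. Those groups do not overlap, and the fall was 1.51-fold (log2 -0.59 ± 0.09 SE, edgeR adjusted p = 0.00227). Both calls held in all 16 alternatives tried.

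Akap6, an anchor at the nuclear envelope of muscle cells, had 1.33, 2.27 and 1.79 CPM in control and 0.942, 0.753 and 0.839 CPM in CPC. It was sparse, with 15 to 52 counts per library, and its groups do not overlap. Its fall of 2.12-fold (log2 -1.09 ± 0.29 SE, adjusted p = 0.0235) lost its call on leaving out any single library but control 1, with an adjusted p of up to 0.0788. Akap8l, a nuclear protein related to the anchor Akap8 (chr17:32321424-32350607), was at 34.2, 27.8 and 31.5 CPM in control and at 48.1, 47.6 and 46.8 in CPC. The CPC libraries are close together and above all controls, and the rise was 1.52-fold (log2 0.61 ± 0.09 SE, edgeR adjusted p = 0.00283). Akap10, which binds both types of regulatory subunit, was at 44.4, 40.6 and 47.9 CPM in control and 52.7, 55.5 and 52.5 CPM in CPC. Its rise was 1.21-fold (log2 0.27 ± 0.09 SE, adjusted p = 0.0380), and the call was lost on leaving out any single library but control 3 (adjusted p of up to 0.109) and without the filter (adjusted p = 0.0525).

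The most abundant anchoring protein gene per length was Akap1, whose product sits on the outer mitochondrial membrane, at 29.2 ± 2.82 CPM per kb in control and 28.9 ± 2.07 in CPC (SD, n = 3; adjusted p = 0.913). Akap8, a nuclear anchor, came next at 15.6 ± 0.649 CPM per kb, followed by Akap8l at 14.8 ± 1.51, which overlap within their spread. Their rank depends on the exon length used: with GENCODE M21 lengths Akap8 stood at 7.54 and Akap8l at 6.14 CPM per kb, below Akap11 at 12.1. The anchoring protein genes summed to 135.9 ± 6.24 CPM per kb in control and 136.6 ± 5.49 in CPC, a ratio of 1.005 that turned to 0.967 with GENCODE lengths. Akap5 held 4.37% of that sum in control and 0.610% in CPC, and Akap8l 10.9% and 16.6%, or 6.55% and 10.3% with GENCODE lengths.

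Phosphodiesterase genes accounted for 5 of the 9 members called higher, a class count of 5 in 16 against the 19.6% of all genes. Pde4d, a cAMP-specific enzyme that PKA itself activates (ENSMUSG00000021699, chr13:108449948-109953461), was at 11.2, 12 and 11.7 CPM in control and at 28.1, 30.6 and 26.0 in CPC. Both groups are tight and far apart. The rise was 2.42-fold (log2 1.28 ± 0.10 SE, edgeR adjusted p = 3.02e-04) and was called in all 16 alternatives. Pde8a, a cAMP-specific enzyme of high affinity (chr7:81213596-81334533), was at 74.9, 93.0 and 71.7 CPM in control and at 118, 138 and 115 in CPC. Replicate 2 was highest in both groups, and the groups do not overlap. The rise of Pde8a was 1.55-fold (log2 0.63 ± 0.12 SE, edgeR adjusted p = 0.00656), and it lost its call without replicate 1 of both groups (adjusted p = 0.0681).

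Pde3b, which hydrolyses cAMP and is inhibited by cGMP (chr7:114415281-114539251), was at 7.05, 6.59 and 4.19 CPM in control and at 15.3, 14.5 and 9.69 in CPC. Replicate 3 was lowest in both groups, and every CPC library lay above every control. Its rise was 2.22-fold (log2 1.15 ± 0.26 SE, edgeR adjusted p = 0.0115). Pde10a, which hydrolyses both cyclic nucleotides, had 13.2, 13.8 and 9.40 CPM in control and 23.2, 24.2 and 18.5 CPM in CPC, with the same order of replicates in each group. Its rise was 1.81-fold (log2 0.86 ± 0.18 SE, edgeR adjusted p = 0.00866). Without replicate 1 of both groups the adjusted p was 0.0713 for Pde3b and 0.0735 for Pde10a, and without replicate 2 of both it was 0.0761 for Pde3b.

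Pde5a, which is specific for cGMP (chr3:122728947-122859374), was at 99.4, 110.1 and 112 CPM in control and at 166, 159.8 and 194 in CPC. The groups are well separated, and the rise was 1.62-fold (log2 0.69 ± 0.10 SE, edgeR adjusted p = 0.00187). Pde1b, which calcium and calmodulin activate (chr15:103503034-103530052), went the other way, at 19.8, 25.2 and 25.8 CPM in control and 11.4, 11.4 and 13.4 in CPC. It fell 1.95-fold (log2 -0.97 ± 0.14 SE, edgeR adjusted p = 0.00206), the only phosphodiesterase called lower by edgeR with the filter and no block. The calls of Pde5a and Pde1b held in all 16 alternatives. Pde1a, the related calmodulin-dependent gene, was 20.6 ± 5.49 CPM in control and 23.1 ± 1.04 in CPC (adjusted p = 0.510), and was called higher without control 3 (adjusted p = 0.0270).

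Pde4b, a further cAMP-specific gene, was not called in the unblocked fit although its groups do not overlap. It was at 37.5, 47.1 and 27.1 CPM in control and at 54.6, 80.5 and 49.5 in CPC. Each CPC library was above the control of its number (log2 0.72 ± 0.26 SE, adjusted p = 0.0636), and with the replicate block the adjusted p was 1.37e-04. DESeq2 gave an adjusted p of 0.0118 for Pde4b, and leaving out control 2 gave 0.0454. With the block, Pde7a was also called higher (log2 0.23, adjusted p 0.156 without and 0.0234 with it) and Pde4a lower (log2 -0.30, adjusted p 0.235 and 0.0393). These block results were picked out after their values were seen.

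Per length, the control level was 34.8 ± 3.39 CPM per kb for Pde6d, 21 ± 3.03 for Pde8a and 15.5 ± 0.992 for Pde5a (SD, n = 3), so the highest value in the family belongs to a gene not known to hydrolyse cyclic nucleotides itself. The 8 cAMP-specific genes of the Pde4, Pde7 and Pde8 groups summed to 47.3, 57.8 and 42.8 CPM per kb in control and 70.9, 87.0 and 67.5 in CPC. The sums do not overlap, and their ratio was 1.52, or 1.46 with GENCODE M21 exon lengths. Pde8a held 42.7% of this sum in control and 43.4% in CPC, while Pde4d went from 9.37% to 14.8%. With GENCODE lengths Pde8a held 62.3% and 65.9%, and Pde4d 3.09% and 5.08%. Genes for enzymes that take both nucleotides summed to 18.3 ± 0.642 CPM per kb in control and 19.7 ± 1.60 in CPC, a ratio of 1.08 that turned to 0.967 with GENCODE lengths. Within that sum Pde10a went from 24.0% to 40.0%, Pde3b from 4.97% to 10.1% and Pde1b from 40.1% to 19.3%. With GENCODE lengths Pde10a went from 9.42% to 17.4%. The pools were not tested.

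**Figure D3:**
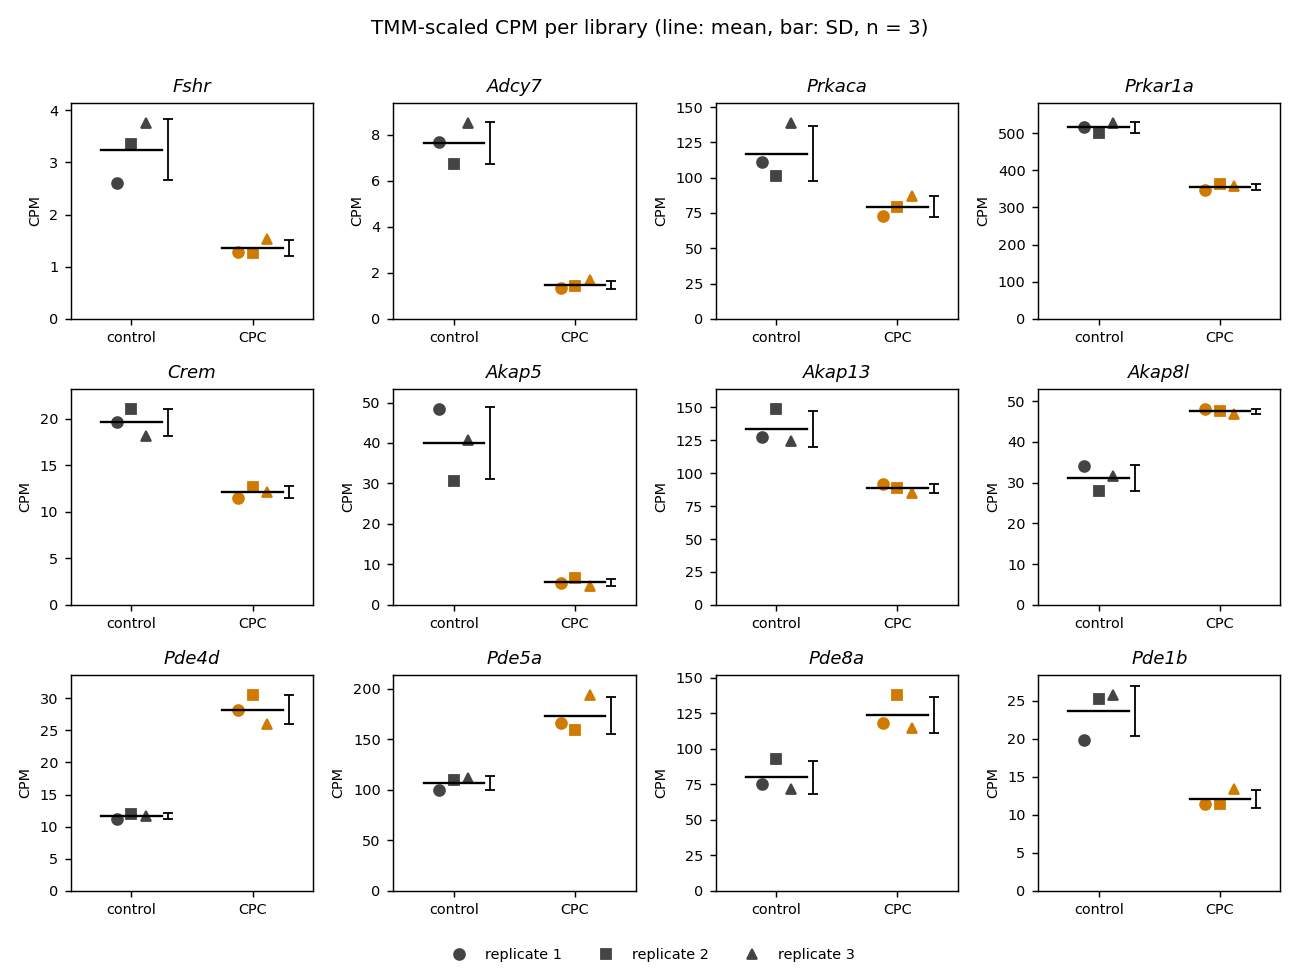
TMM-scaled CPM of 12 members in each library, control in grey and CPC in orange, with the marker shape giving the replicate number, a line at the mean and a bar of 1 SD (n = 3). Groups do not overlap in any panel; Akap8l, Pde4d, Pde5a and Pde8a are higher in CPC and the other 8 are lower.

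RGS genes were mostly sparse, and 4 of the 12 tested were lower in CPC, where 19.7% of all tested genes were. Among the 4, Rgs1 and Rgs22 passed the low-count filter through their control counts, so this class count leans to lower calls. Rgs9, an RGS protein best known from retina and striatum (ENSMUSG00000020599, chr11:109225355-109298129), was at 3.74, 3.40 and 4.19 CPM in control and at 1.2, 0.452 and 0.979 CPM in CPC. The fall was 4.25-fold (log2 -2.09 ± 0.35 SE, edgeR adjusted p = 0.00404), with no overlap, and was called in all 15 alternatives in which the gene was tested. Rgs4, which acts on alpha subunits of the Gi and Gq classes (chr1:169741477-169747642), was at 15.6, 11.3 and 10.2 CPM in control and at 6.0, 5.87 and 1.63 CPM in CPC. CPC 3 stands below the other CPC libraries, and the groups do not overlap. The fall of Rgs4 was 2.74-fold (log2 -1.45 ± 0.47 SE, adjusted p = 0.0468). Its call was lost on leaving out any single library but CPC 3 (adjusted p of up to 0.129), without scaling factors (0.0530) and without the filter (0.142).

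Rgs22, known mainly from testis, gave control counts of 20, 50 and 38 and CPC counts of 7, 16 and 8. It fell 3.44-fold (log2 -1.78 ± 0.46 SE, adjusted p = 0.0192), and leaving out control 2, CPC 1 or CPC 3 ended the call (adjusted p of up to 0.0640). Rgs1, an RGS gene of immune cells, gave control counts of 12, 15 and 79 and CPC counts of 2, 0 and 3. Control 3 alone holds most of the counts. The fitted log2 change of Rgs1 was -4.34 ± 1.09 SE (adjusted p = 0.0204), and it was -2.98 without control 3 and -5.01 without CPC 3. The call was lost without CPC 1 or CPC 2 (adjusted p of up to 0.0684). Control 3 also had the highest summed leukocyte marker level, at 318 CPM against 195 and 246 in the other controls, and the part of leukocyte RNA in the fall of Rgs1 was not tested.

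Rgs19, which acts on Gi class subunits, was the RGS gene called higher, at 27.9, 26.7 and 25.9 CPM in control and 32.5, 31.4 and 31.0 in CPC. The change was small beside a tight spread, 1.18-fold (log2 0.24 ± 0.08 SE, adjusted p = 0.0416). It lost its call on leaving out any library (adjusted p of up to 0.122), with DESeq2 (0.0587) and without the filter (0.0951). Rgs19 was also the most abundant RGS gene per length, at 17.8 ± 0.649 CPM per kb in control, followed by Rgs12 at 15.2 ± 2.95 and Rgs10 at 9.56 ± 1.03 (SD, n = 3). Rgs19 and Rgs12 overlap within their spread. Rgs12, a large multidomain member, was 83.4 ± 16.2 CPM in control and 78.9 ± 16.0 in CPC (adjusted p = 0.759). Rgs10, a short member, was 8.42 ± 0.910 and 6.29 ± 1.05 CPM, with an adjusted p of 0.104 that became 0.0239 with the replicate block.

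Crem, whose alternative promoter gives the cAMP-induced repressor ICER, fell in CPC, and Creb1 was not called. Crem (ENSMUSG00000063889) was at 19.6, 21.1 and 18.2 CPM in control and at 11.5, 12.7 and 12.2 CPM in CPC. The groups are tight and do not overlap. The fall was 1.62-fold (log2 -0.70 ± 0.11 SE, edgeR adjusted p = 0.00273), and was lost without replicate 1 of both groups (adjusted p = 0.0591). Gene-level counts do not separate ICER from the longer forms, and 8.0% of the exon bases of Crem are shared with Gm6225 on the opposite strand. Creb1 was at 74.3, 79.8 and 74.1 CPM in control and at 88.3, 89.4 and 76.2 in CPC, with CPC 3 inside the control range (log2 0.15 ± 0.08 SE, adjusted p = 0.185). Per length in control, Creb1 stood at 9.10 ± 0.388 CPM per kb, Crem at 7.37 ± 0.548 and Fshr at 1.38 ± 0.246 (SD, n = 3). Lhcgr stood at 0.628 CPM per kb over the exon length of the files, 1073 bases, and at 0.0881 over the 7645 bases of GENCODE M21.

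Libraries of the same replicate number, which the groups share, varied together in these genes and across all genes. A median of 79.1% of the within-group variance of the 56 members lay between numbers, and over all tested genes the median was 72.8%. It was over 90% for 16 members (28.6%) and for 24.4% of all tested genes. In 23 members (41.1%) the numbers stood in the same order in both groups, as they did in 31.6% of all tested genes. Unrelated libraries would also give a share of variance between numbers and some equal orders, and that level was not computed. Pde3a, the phosphodiesterase of oocytes and muscle, was at 13.5, 6.85 and 1.65 CPM in control and at 9.08, 6.17 and 1.63 in CPC, so libraries of the same number lie close together across the groups (98.8% of its within-group variance; adjusted p = 0.761).

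Rgs2, an RGS protein selective for Gq, was at 15.3, 41.6 and 10.3 CPM in control and at 7.5, 17.9 and 7.74 in CPC. Replicate 2 was highest in both groups, and each CPC library lay below its number's control. The Rgs2 difference was not called without the block (log2 -1.03, adjusted p = 0.237) and was called with it (log2 -0.92, adjusted p = 0.00130). Rgs16, which is inducible in many cells, was at 3.15, 1.05 and 0.987 CPM in control and at 5.27, 4.72 and 1.72 in CPC. Its adjusted p was 0.152 (log2 1.19), 0.00959 with the block and 0.0419 without control 1. Pde7b was at 6.19, 15.0 and 6.44 CPM in control and 3.94, 11.5 and 6.62 in CPC (adjusted p = 0.634), with replicate 2 highest in both groups. The deviations of libraries with equal numbers correlated across all genes, and no label says what a number shares.

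Markers of other cells also differed by number. The summed level of the theca and stroma list was 783, 470.1 and 444 CPM in control and 928, 771 and 264.5 in CPC, with Cyp17a1 at 0 in all libraries and no gene of the list called without the block. Acta2 made up 74.3% to 91.9% of that sum over the libraries. Surface epithelium markers summed to 344, 154 and 161 CPM in control and 399, 95.3 and 101 in CPC. Replicate 1 was highest for both lists in both groups. With the replicate block Lum of the stroma list was lower in CPC (adjusted p = 0.0486, and 0.683 without the block), and of the epithelial list Epcam was higher (0.00591) and Krt8 (0.0299) and Upk3b (0.0403) were lower, none of them called without it. Their part in the variation of Pde3a and the other members was not tested. Endothelial markers summed to at most 4.98 CPM in any library and oocyte markers to at most 4.19 CPM. Luteal markers summed to 3205 to 4995 CPM in control and 707 to 1349 CPM in CPC. Of 4 tested luteal genes 3 were lower, where 19.7% of all tested genes were. Hsd3b1 held 41.8% to 80.6% of the luteal sum and Star 18% to 57.8% over the libraries. Both are also among the cAMP-induced genes of granulosa cells counted below.

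**Figure D4:**
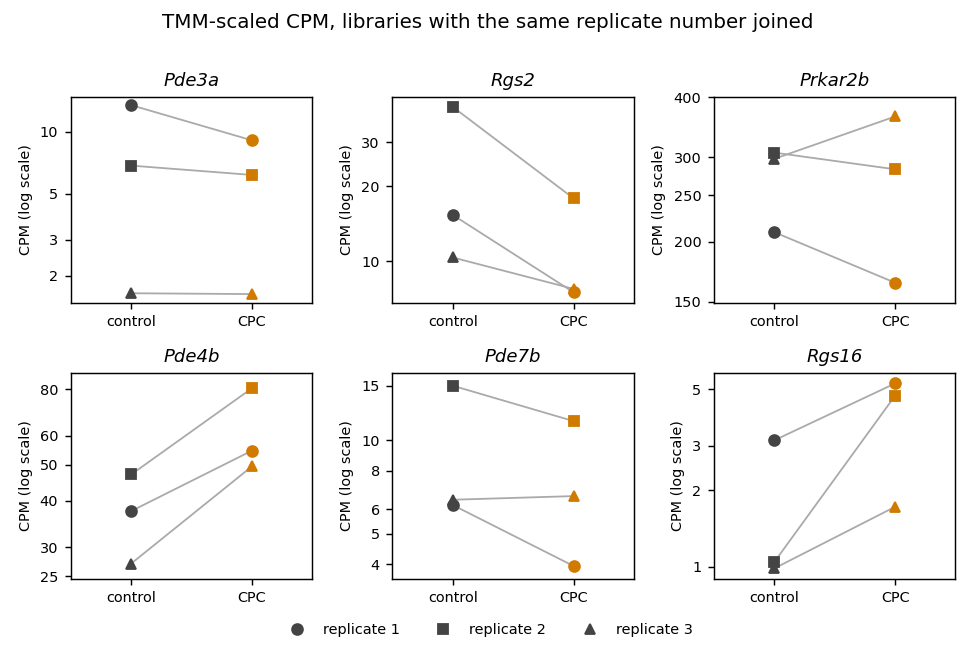
TMM-scaled CPM (log axis) of 6 members in control and CPC, with grey lines joining libraries that carry the same replicate number. In Pde3a, Pde7b and Rgs2 the numbers differ as much as or more than the groups, and in Pde4b and Rgs16 every line runs upward.

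The other tested members were Adcy1, Adcy2, Adcy5, Akap7, Akap9, Akap11, Akap12, Akap17b, Pde8b, Pde11a, Pde12, Rgs3, Rgs6 and Rgs11, and none of them was called with edgeR, DESeq2, limma-voom or the block. Their log2 changes lay between -0.68 for Adcy5 and 0.77 for Adcy2. The smallest adjusted p among them was 0.0862, for Adcy5, a cyclase of heart and striatum (1.51 ± 0.318 CPM in control and 0.946 ± 0.0932 in CPC). Rgs6 had 16.2 ± 1.98 and 20.7 ± 3.44 CPM (adjusted p = 0.0980). Of the 25 members below the filter, 6 had no count in any library: Akap4, Akap14, Rgs21, Pde2a, Pde6b and Pde6c. A count of 0 allows up to 3 counts, 0.130 to 0.157 CPM in these libraries. For Pde2a this limit may not measure the gene, since 64.3% of its exon bases are shared with Gm45837, a protein-coding gene on the same strand, and how reads of several genes were counted is not known. The other 18 beside Lhcgr had at most 14 counts in a library and were Akap3, Rgs5, Rgs7, Rgs8, Rgs13, Rgs14, Rgs17, Rgs18, Rgs20, Adcy4, Adcy8, Adcy10, Pde1c, Pde4c, Pde6a, Pde6g, Pde6h and Pde9a.

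Genes that act beside the members were counted in 5 lists, against a background of 19.6% of all tested genes higher and 19.7% lower, or 26.5% and 27.9% with the replicate block. For list counts from fits that left out libraries, the share of all genes called is not given. Of 15 tested G protein subunit genes 3 were higher and 1 lower, and without replicate 1 or without replicate 2 of both groups 1 was higher and 0 lower. Gnal, which encodes a stimulatory alpha subunit first known from olfactory neurons, rose from 1.40 ± 0.215 to 4.25 ± 0.0713 CPM (3.03-fold, edgeR adjusted p = 0.00173). Gnas, the alpha subunit that gonadotropin receptors couple to, was 653.8 ± 32.7 CPM in control and 585.2 ± 19.8 in CPC (adjusted p = 0.173). Gng12, a gamma subunit, rose 1.61-fold (adjusted p = 0.0107), a call lost without replicate 1 (0.0520) or replicate 2 (0.0960) of both groups. Gnai2, an inhibitory alpha subunit, fell 1.2-fold (adjusted p = 0.0177), which was not called when control 1, CPC 1 or CPC 3 was left out (adjusted p of up to 0.0653) or without any one replicate number (up to 0.173).

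Of 6 tested receptor kinase and arrestin genes 1 was higher and 1 lower, or 2 and 3 with the replicate block. Grk5 fell 1.74-fold (adjusted p = 0.00866) and Grk2 rose 1.24-fold (adjusted p = 0.0108, and 0.0537 without control 1); both kinases phosphorylate active receptors. Without replicate 1 of both groups the adjusted p was 0.0610 for Grk5 and 0.134 for Grk2, and without replicate 2 it was 0.0838 and 0.0591. Arrb2, an arrestin that binds such receptors, was 9.76 ± 1.34 CPM in control and 13 ± 0.974 in CPC (adjusted p = 0.0556, 0.0496 by limma-voom and 0.0300 with the block). Of 7 tested cAMP effectors and PKA inhibitors 2 were lower and 0 higher by edgeR, 3 lower and 0 higher by DESeq2, and 5 lower with the block. The list's median log2 change was -0.80 against -0.003 for all genes. Pkig, an inhibitor of the PKA catalytic subunit, fell 1.39-fold (adjusted p = 0.0184), and Popdc2, a membrane protein that binds cAMP, fell 2.16-fold (adjusted p = 0.0227). The count of 2 became 0 without control 2 and 1 without control 1, CPC 1 or CPC 3. Leaving out 1 library took the adjusted p of Pkig to as much as 0.0757 and that of Popdc2 to 0.0773, and DESeq2 did not call Popdc2 (0.0508). Without replicate 1 of both groups it was 0.138 for Pkig and 0.0910 for Popdc2. Pkia, another PKA inhibitor, was at 35.6, 42.4 and 19.1 CPM in control and 15.0, 19.8 and 7.41 in CPC (adjusted p = 0.0714, 0.00497 by DESeq2 and 1.64e-05 with the block).

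Of 9 CREB partners and SIK kinases 6 were higher, where 19.6% of all tested genes were, and all 9 fitted changes were above 0, with a median log2 change of 0.33. Sik2, a kinase that PKA inhibits and that retains CREB coactivators in the cytoplasm, rose from 26.9 ± 1.87 to 41.6 ± 1.68 CPM (1.55-fold, edgeR adjusted p = 0.00177). The coactivator genes Crtc2 and Crtc3 rose 1.36-fold (adjusted p = 0.0150) and 1.26-fold (adjusted p = 0.0198), and leaving out control 1, control 3, CPC 2 or CPC 3 ended the call of Crtc3 (adjusted p of up to 0.0769). The call of Crtc2 was lost without replicate 1 (0.0870) or replicate 3 (0.0694) of both groups. The count of 6 fell to 2 without control 1 or without CPC 2 to 3 without CPC 3, and to 1 without replicate 1 of both groups.

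Of 28 tested genes that cAMP is known to induce in granulosa cells, 7 were higher and 9 lower, or 3 to 6 higher and 4 to 10 lower without 1 of the replicate numbers, with a median log2 change of 0.11, so the list did not move one way. Hsd3b1, a progesterone synthesis enzyme, was at 2473, 2607 and 3317 CPM in control and 289.5, 384 and 582 in CPC, a fall of 6.69-fold (edgeR adjusted p = 7.94e-04). Fos, an immediate early transcription factor, fell 2.85-fold (adjusted p = 0.00132). Ptx3, a protein of the cumulus matrix, rose from 1.12, 1.57 and 0.564 CPM to 47.6, 31.2 and 15.4 CPM, 28.6-fold (adjusted p = 0.00170). The calls of Hsd3b1, Fos and Ptx3 held in every alternative run.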

How the data were processed

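RNA sequencing counts of 6 libraries, 3 control and 3 CPC, were grouped by their titles. Per the file headers, each deposited file holds 1 count per gene with symbol, type, location and exon length (GRCm38.p6). The counts are whole numbers and were used as deposited. Bowtie2, RSEM and hg19 are listed, per the submitters' processing notes, which does not match the mouse files, so which aligner and counter made them is not known. The sources used here do not say how multi-gene reads or strand were handled.

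Genes were filtered with filterByExpr (15000 of 26620 with any count), scaled by TMM and tested with edgeR 4.0.16 (quasi-likelihood, robust, no covariate) in R 4.3.3, with Benjamini-Hochberg adjustment over all tested genes at 0.05. SE is the size of the log2 fold change over the square root of F, and spreads are SDs over 3 libraries. CPM of single genes is TMM-scaled; sums over a list are plain CPM. Levels per kb use the exon length of the files. Counting floors (3 counts) cover counting error only. Motifs were searched in RefSeq promoter windows (GRCm38.p6) and exon overlaps in GENCODE M21.

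Replicate numbers paired the libraries: deviations from group means correlated at 0.626, 0.576 and 0.596 for equal numbers and at -0.24 to -0.34 otherwise. Because deviations within a group cancel, positive values for equal numbers bring negative values for the others. The pairing comes from the data. Alternatives were the replicate block, DESeq2 1.42.0, limma-voom (3.58.1), RLE factors, library size alone, a filter of 5 CPM in 3 libraries or none, and leaving out each library or each replicate number from both groups. Exon lengths from GENCODE M21 and the same alternatives for list genes were added after seeing the data. The edgeR script was tested on simulated data.

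The members and lists were chosen with earlier results of these data known. Full values are given for the receptors, CREB family and PKA subunits, for up to 5 called members per class and direction with a group mean of at least 1 CPM, and for the 3 most abundant per class per length, with up to 3 genes per list by adjusted p. Genes called only with the block, Pde1a, Pde3a, Pde7b, Adcy5, Rgs6, Gnas and the markers were named after their values were seen.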

Additional observations from a re-analysis of the deposited data

How the results depend on the processing

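Of the 22 calls, 8 held in every alternative in which the gene was tested (Adcy7, Akap5, Akap8l, Akap13, Pde1b, Pde4d, Pde5a and Rgs9). Without each single library 15 held, and 19 held under every change of tool, scaling, filter or block in which the gene was tested. Akap6, Fshr, Rgs1, Rgs9 and Rgs22, which are among the 19, were not tested with the filter of 5 CPM. Members called higher ranged from 3 to 9 and those called lower from 5 to 12 when a library or a replicate number was left out, the lowest without replicate 1 of both groups. Leaving out gave 2 to 7 phosphodiesterases higher, 1 to 2 anchoring proteins higher, 0 to 1 RGS genes higher and 1 to 3 lower, 0 to 1 PKA subunits higher and 0 to 2 lower, and 0 to 3 receptor or CREB family genes lower. The 3 receptor or CREB family genes, found without CPC 3, include Lhcgr, which passed the filter there through its control counts. A filter of 5 CPM left 8 members lower, 1 RGS gene and 1 receptor or CREB family gene, since fewer sparse genes were tested. Without a filter 2 phosphodiesterases were lower, 1 anchoring protein was higher and 0 RGS genes were higher; DESeq2 also gave 0 RGS genes higher. The replicate block gave 2 cyclases lower, 2 phosphodiesterases lower and 2 RGS genes higher, and the 7 further members it called are given with their values above; it changed no other call of a member. Without scaling factors the median log2 change of all genes moved to 0.07, and Akap1 (0.057), Prkar2b (0.065) and Adcy6 (0.063) changed sign. Without a filter Prkar2b (0.006) and Adcy6 (0.004) did so too. Leaving out libraries or numbers turned the sign of genes that were not called, with log2 ranges of -0.067 to 0.066 for Akap1, -0.57 to 0.16 for Akap12, -0.027 to 0.099 for Akap9, -0.027 to 0.21 for Prkar2a, -0.27 to 0.27 for Prkar2b, -0.10 to 0.20 for Rgs11, -0.25 to 0.079 for Rgs12, -2.44 to 0.21 for Adcy1, -0.41 to 2.15 for Adcy2, -0.043 to 0.087 for Adcy6, -0.48 to 0.041 for Pde11a, -0.90 to 0.40 for Pde3a and -0.80 to 0.22 for Pde7b. The causes of these changes were not tested. Rgs1, Rgs22, Akap6 and Lhcgr had at most 79, 50, 52 and 24 counts in a library, and the part of counting error in their spread was not tested.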

Other observations

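Below the filter, 2 members differed between the groups when every gene with a count was tested with edgeR. Pde6g, the inhibitory gamma subunit of the rod photoreceptor phosphodiesterase, gave control counts of 1, 2 and 1 and CPC counts of 13, 8 and 10 (log2 2.81, adjusted p = 0.00482 without a filter). It was called higher where leaving out any control, CPC 2 or replicate 2 of both groups let it pass the filter (adjusted p of 0.0127 to 0.0264). Those fits share libraries, and Pde6g passed through its CPC counts, so they add no support. Pde1c, a calmodulin-dependent phosphodiesterase, gave control counts of 5, 5 and 1 and none in any CPC library (adjusted p = 0.0304 without a filter). The values rest on 35 and 11 counts in all and were picked out after they were seen. Adcy8 had 5 counts in CPC 1 and 0 in the other libraries.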
